A study of Mus musculus with 29 samples.

Results

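The ribosomal protein genes were taken as the genes of the deposited count tables whose symbol starts with Rpl or Rps followed by a digit. Symbols with "-ps", symbols starting Rps6k (kinases) and Rps19bp1 were left out. The rule gave 87 genes, 52 of the large ribosomal subunit (Rpl) and 35 of the small (Rps), of 27827 genes in all tables together. The blood table listed 86 of them, without Rpl10l. In the GENCODE vM21 annotation 81 are protein coding and 6 are pseudogenes (Rpl32l, Rpl37rt, Rpl6l, Rps3a2, Rps3a3 and Rps4l), spread over 19 chromosomes.

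The study counted transcripts in single cells by Drop-seq, in which cells are captured in droplets with barcoded beads, in C57BL/6J mice after transient middle cerebral artery occlusion (stroke) or sham surgery. From young males (8 to 10 weeks) came 4 brain libraries each of sham day 2, stroke day 2 and stroke day 14, and 4, 4 and 3 blood libraries of the same groups. From aged mice (17 to 20 months) came 1 male and 1 female brain library of sham day 2, 1 male and 2 female of stroke day 2, and 1 female of stroke day 14. Each brain library pooled 4 to 5 hemispheres, digested with papain in the presence of actinomycin D (a blocker of RNA polymerase) and of blockers of P2X7 and NMDA receptors. Microglia, leukocytes high in CD45 and CD45-negative endothelial cells high in Ly6c were then sorted. Each blood library pooled 2 mice, with lysis of red cells and removal of cells carrying Ter-119. Sham animals were sampled at day 2 only, and these serve as the control of both stroke times. A difference at day 14 against sham cannot be told apart from one of time since surgery.

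Ribosomal proteins, together with ribosomal RNA, form the small and large subunits of the ribosome, the machine that translates mRNA into protein. Their mRNAs are among the most abundant in most cells. Many start with a terminal oligopyrimidine tract, a C at the first transcribed base followed by a run of pyrimidines, through which mTORC1 signalling controls their translation, and Myc promotes their transcription. Microglia are the resident macrophages of the brain, and endothelial cells line its vessels. In general, cells that grow or make much protein build more ribosomes.

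To show what such a start looks like in members described later, the 60 bases around the annotated transcription start of 4 members are printed 5′ to 3′ on the strand of the gene, with 40 bases before the start and 20 from the start on (RefSeq, GRCm38.p6). Capitals mark a run of C and T near the start, counted from the first transcribed base on where the tract begins there.
Rps27 (chr3:90213629-90213688, minus strand): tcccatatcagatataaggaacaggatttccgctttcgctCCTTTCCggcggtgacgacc
Rpl22l1 (chr3:28805468-28805527, plus strand): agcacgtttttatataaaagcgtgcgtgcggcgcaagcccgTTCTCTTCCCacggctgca
Rps27l (chr9:66946046-66946105, plus strand): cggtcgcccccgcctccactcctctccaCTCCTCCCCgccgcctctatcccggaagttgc
Rps19 (chr7:24884552-24884611, plus strand): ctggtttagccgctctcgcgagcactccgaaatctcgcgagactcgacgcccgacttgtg
The capitals of Rps27 hold 7 bases from base 1 of the transcript on, and the bases just before the start, ct, extend the run upstream. That of Rpl22l1 holds 10 bases and begins at base 2. The run of Rps27l holds 9 bases and ends before the annotated start, and no run was marked for Rps19. A tract was counted where the annotated first base was C and at least 4 further pyrimidines (C or T) followed, read on the strand of the gene only. It was present in 14 of the 64 members with an entry (21.9%), against 3.01% of 27025 genes. A run of at least 8 pyrimidines within 10 bases of the start was present in 45.3% of these members and 15.8% of all genes. The count depends on the annotated start to the base, and a member without a match may carry a tract at another start.

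Depth ranged from 819438 to 5855047 summed counts over 1143 to 6328 cells per library, and the median cell held 321 to 1363 counts. Counts were summed per library and deposited cell type wherever at least 20 cells were present, and the share of these counts from all members together is called the ribosomal protein share. The deposited types used were microglia (Mg), endothelial cells (EC), monocyte-derived cells (MdC), dendritic cells (DC), border-associated macrophages (BAM), granulocytes (Gran), neutrophils (Neu), monocytes (Mo), and NK, T and B cells. Eosinophils and basophils shared the code Eos.Bas. The codes UC (1 sum, of 21 cells), pre (3 sums), MC (3) and Epi (1 sum, of 23 cells), which the labels do not spell out, enter only where all sums are used. In 5 young brain libraries the median cell held 0.235% to 0.559% mitochondrial counts, against 1.67% to 3.38% in the other 7. These low-mitochondrial libraries were sham replicate 1, stroke day 2 replicates 1 and 2, and stroke day 14 replicates 1 and 2. Libraries shared at most 7 cell barcodes (0.147% of the smaller library).

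Before any comparison, 3 young brain libraries stood apart in the members themselves: sham replicate 1, stroke day 2 replicate 3 and stroke day 14 replicate 3, 1 library in each group. Levels here are in CPM, counts relative to the library total over all cell types, without TMM scaling. Later CPM values of single members within a cell type are TMM-scaled. Members with a median of at least 100 CPM over the young brain libraries numbered 76. Below 25% of that median were 25 in stroke day 2 replicate 3, 25 in sham replicate 1 and 24 in stroke day 14 replicate 3. In the other 26 libraries of the study, aged and blood included and each set against its own tissue and age, the number was 0. The same 24 members were low in all 3 libraries, among them Rpl5, Rpl7a, Rpl9, Rpl10, Rpl10a, Rpl11, Rpl12, Rpl15, Rpl17, Rpl19, Rpl21, Rpl23a, Rpl27, Rpl27a, Rpl28, Rpl31, Rpl36a, Rps6, Rps12, Rps23, Rps27, Rps27a and Rps29.

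Rps6, the subunit protein phosphorylated downstream of mTORC1, was at 0.999% of its median of 877 CPM in sham replicate 1, 1.03% in stroke day 2 replicate 3 and 0.846% in stroke day 14 replicate 3. In the other 9 libraries it was at no less than 75.8%. Rps29, a zinc-binding protein of the small subunit, was at 0.547%, 0.673% and 0.841% of a median of 2536 CPM, and at no less than 61.9% elsewhere. Just outside the limit, Rps13 was at 18.3%, 29.8% and 27.1% of its median, and Rpl36 at 32.0%, 24.7% and 30.1%. Thus these libraries lacked most counts of some members and held the rest near their usual level.

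**Figure D1:**
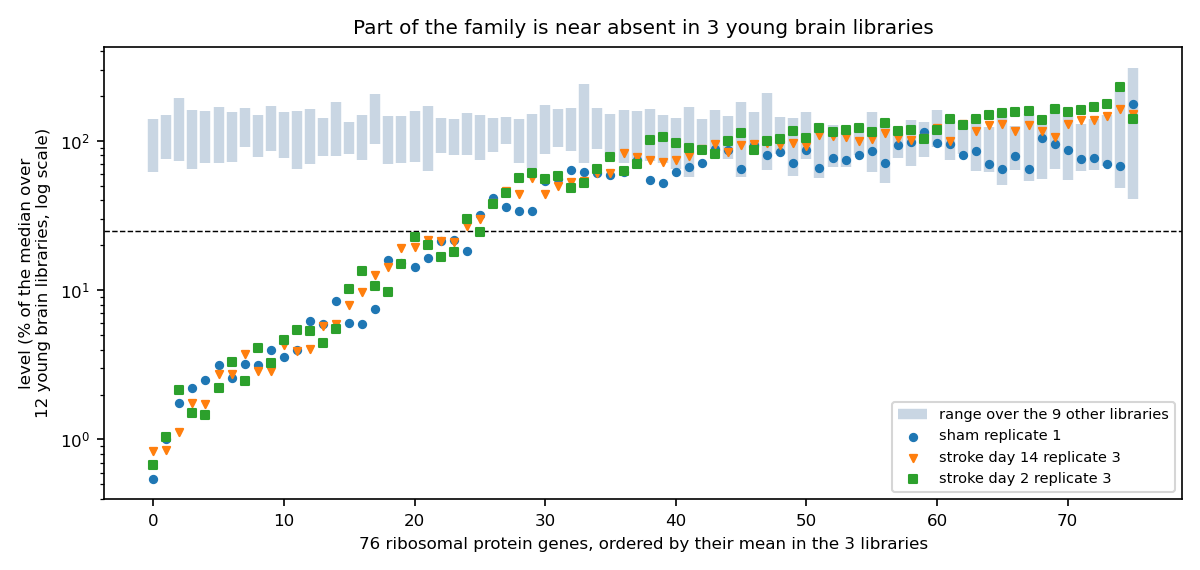
Level of each of 76 members in the 3 libraries that stood apart, as a percent of its median over the 12 young brain libraries (log axis), with bars for the range over the other 9 libraries and a dashed line at 25%. The 24 members low in all 3 libraries sit to the left, with Rps6 and Rps29 near 1%, while the bars of the other libraries reach no lower than 41.2% (Rpl37rt).

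Genes outside the family were rarely affected in the same way. Of 1513 other genes with a median of at least 100 CPM, 2 (0.132%) were low in all 3 libraries. These were Fau, whose product holds the small subunit protein eS30 (5.10%, 4.52% and 4.58% of its median in sham, day 2 and day 14), and Gapdh, a glycolytic enzyme (6.16%, 9.75% and 7.24%). The 24 low members shared a 50-base word with a median of 14 annotated pseudogenes (range 4 to 120), against 7 (range 0 to 81) for 51 of the other members, and 18 of the 24 shared one with at least 10, as did 15 of these 51. The low libraries lie on both sides of the mitochondrial split: sham replicate 1 is low-mitochondrial and the other two are not. Counts with a "-ps" pseudogene symbol made up 0.175% to 2.28% of all counts in young brain libraries, and 0.226% to 0.313% in the 3. What the pseudogenes have to do with the missing counts was not tested. The results on young brain are therefore given with all libraries and, for shares, counts of members and counts of related genes, without these 3, a choice made after the values were seen.

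The ribosomal protein share was highest in T cells and, among the types above with a spelled-out name, lowest in neutrophils and granulocytes. In blood it was 26.5% ± 2.90 in T cells (SD, n = 11 libraries), 17.8% ± 2.10 in B cells (n = 11), 16.01% ± 1.15 in dendritic cells (n = 6) and 13.3% ± 1.34 in NK cells (n = 11). Monocytes were at 12.5% ± 1.47 (n = 11), the eosinophil and basophil code at 11.1% ± 2.43 (n = 7) and neutrophils at 1.89% ± 0.32 (n = 11). The order of neighbours can be read within libraries. T cells were above B cells in 11 of 11 libraries, by 1.33 to 1.61 times, and B cells were above monocytes in 11 of 11. Monocytes were above neutrophils in 11 of 11, by 4.57 to 9.22 times. Monocytes were above NK cells in only 1 of 11 libraries, but the ranges of both types over libraries overlapped (10.7% to 15.5% and 11.01% to 15.03%).

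In young brain T, B and NK cells had the highest means and granulocytes the lowest. The share was 18.6% ± 4.45 in T cells (n = 11), 17.2% ± 3.04 in B cells (n = 9), 15.3% ± 3.26 in NK cells (n = 6) and 14.9% ± 3.37 in dendritic cells (n = 12). It was 9.93% ± 2.91 in monocyte-derived cells, 8.70% ± 2.25 in border-associated macrophages, 7.94% ± 2.37 in microglia, 7.30% ± 2.39 in endothelial cells and 2.20% ± 0.91 in granulocytes. When the 3 libraries were dropped these means were 20.6%, 18.9%, 17.2%, 16.3%, 10.9%, 9.55%, 8.59%, 8.04% and 2.51%, in the same order. Dendritic cells were above monocyte-derived cells in 12 of 12 libraries (1.31 to 1.72 times), T cells above microglia in 11 of 11, and microglia above granulocytes in 12 of 12, and so in all of the 9 libraries (8 with T cells) left without the 3. Over all 12 libraries the ranges of the 4 types from endothelial to monocyte-derived cells overlapped. Within libraries, monocyte-derived cells were above endothelial cells in 4 of 4 sham libraries (1.96 to 2.21 times), 4 of 4 at day 14 (1.22 to 1.46 times) and 1 of 4 at day 2. In aged brain T cells were at 20.0% ± 1.14, dendritic cells at 15.2%, monocyte-derived cells at 10.8%, microglia at 8.54%, endothelial cells at 8.16% and granulocytes at 2.87%.

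**Figure D2:**
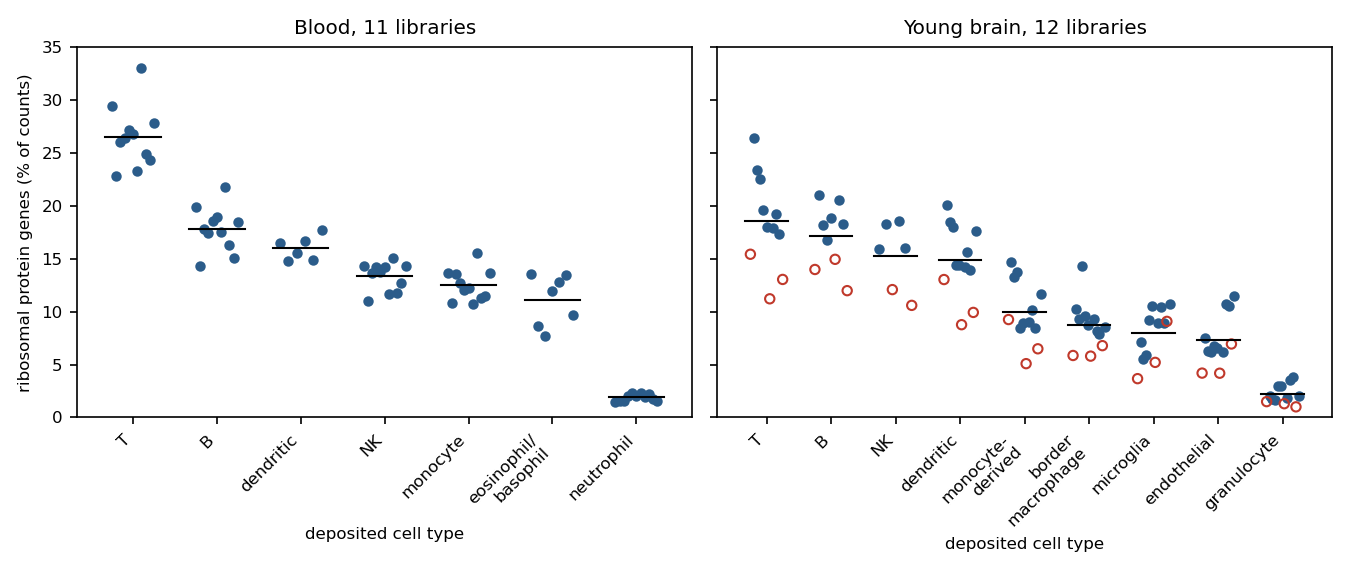
Ribosomal protein share of counts (percent) per library in the cell types of blood and young brain, with a line at the mean and open red points for the 3 libraries that stood apart. T cells lead in both tissues (means 26.5% and 18.6%), and neutrophils and granulocytes are lowest (1.89% and 2.20%).

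The difference between lymphocytes and neutrophils was tested gene by gene with edgeR's quasi-likelihood test, with the library as a block and Benjamini-Hochberg adjustment over all genes tested. At adjusted p under 0.05, 78 of 80 members were higher and 2 lower in blood B cells than in neutrophils, where 48.3% of all 6873 genes tested were higher and 37.3% lower. The median log2 fold change was 2.74 over members and 0.28 over all genes. Against T cells, 77 of 80 members were higher and 1 lower in T cells, with 45.2% of all 5240 genes higher and 40.3% lower, and the medians were 3.61 and 0.13. Nearly the whole family thus differed in 1 direction between types.

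The size of the difference varied among members. Rpl12, of the stalk base of the large subunit, had 1316 ± 286 CPM in B cells and 7.58 ± 12.6 in neutrophils (n = 11 libraries each), a log2 fold change of 9.31 ± 0.45 (SE). In T cells it was 10.58 above neutrophils. Rpl10a, another large subunit protein, followed with 8.59 and 9.46. Rps18, at the head of the small subunit, followed with 6.995 and 8.09. Rps19, a small subunit protein mutated in Diamond-Blackfan anaemia, stood at 4415 ± 914 CPM in B cells against 112 ± 61 in neutrophils (log2 fold change 5.53). At the other end, Rps27a, which encodes a ubiquitin fusion, differed by 0.33 in B cells (edgeR adjusted p = 0.0045) and by 1.36 in T cells. Rps9 was lower in B cells (2571 against 3430 CPM, log2 fold change -0.39 ± 0.12, edgeR adjusted p = 0.00605). That call turned positive when libraries were scaled by their totals, under which the all-gene median was 1.09 in place of 0.28. Against T cells Rps9 did not pass (0.23, edgeR adjusted p = 0.0542). Rpl37rt, a retrogene copy of Rpl37, was among the 3 lowest called values in T cells at 1.36. Rpl3l, the paralogue of Rpl3 known from heart and skeletal muscle, was higher in neutrophils (50.4 against 3.01 CPM in B cells), with log2 fold changes of -5.95 in B cells and -5.02 in T cells.

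Microglia of young mice held a higher ribosomal protein share 2 days after stroke. The share was 3.67%, 7.14%, 5.54% and 5.91% in sham replicates 1 to 4 and 10.4%, 8.88%, 9.08% and 10.7% in stroke day 2 replicates 1 to 4. All stroke libraries were above all sham libraries, and the means were 5.56% ± 1.44 and 9.78% ± 0.93 (SD, n = 4 each), 1.76 times higher. The difference was 4.21 percentage points, and 2.72 when each deposited value was rounded up, with stroke day 2 replicate 3 then at 3.47%. At day 14 the share was 9.23%, 10.5%, 5.20% and 8.94% (8.47% ± 2.28, n = 4), and replicate 3, one of the 3 libraries that stood apart, fell among the sham libraries. Without these 3 the means were 6.20% ± 0.84 in sham, 10.0% ± 0.99 at day 2 and 9.55% ± 0.82 at day 14 (n = 3 each), and both stroke groups lay above sham with no overlap. Over the 63 other members alone the shares averaged 4.03%, 7.50% and 6.19% with all libraries, again with no overlap at either time.

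**Figure D3:**
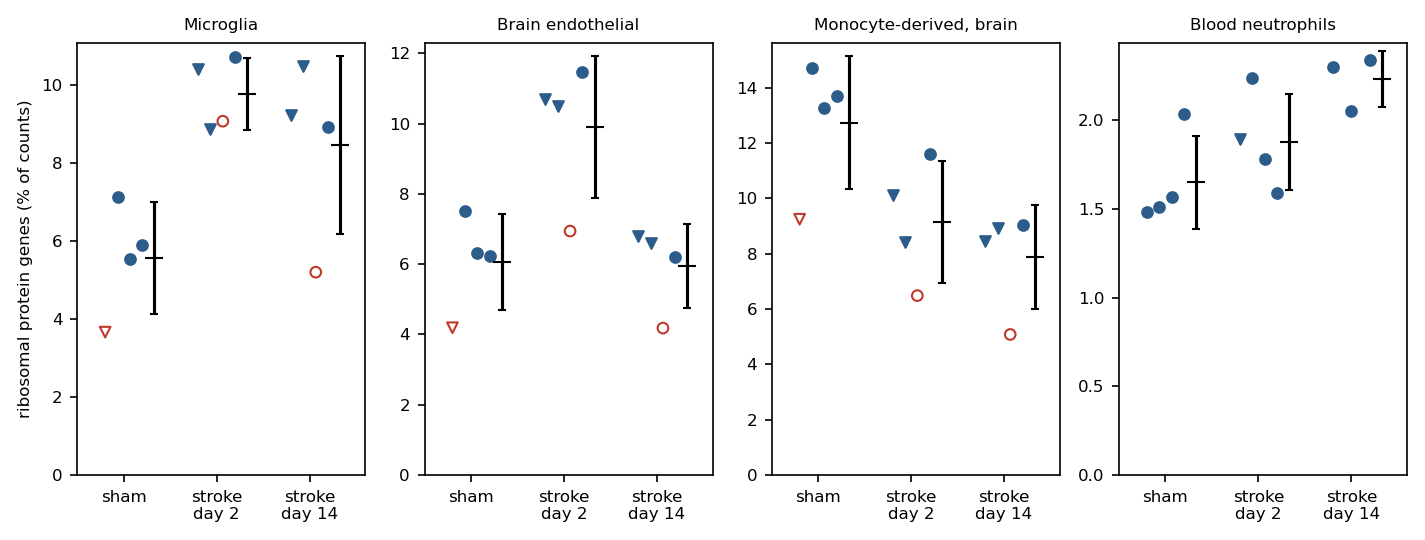
Ribosomal protein share of counts (percent) per library by group in microglia, endothelial cells and monocyte-derived cells of young brain and in blood neutrophils, with mean ± SD as black bars, triangles for low-mitochondrial libraries and open red points for the 3 libraries that stood apart. Microglia average 5.56% in sham and 9.78% at stroke day 2, and endothelial cells return from 9.90% at day 2 to 5.94% at day 14.

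The libraries differed in ways that moved with the groups. Stroke day 2 replicate 3 held only 58 microglia with 26321 counts. Its microglial marker list (with P2ry12 and Tmem119 among its genes) summed to 644 CPM, against 13760 to 15370 in the other day 2 libraries, 16800 to 24970 in sham and 12250 to 16960 at day 14. The monocyte or macrophage list in the microglial sums was at 235 to 397 CPM in sham, 520 to 4015 at day 2 and 2130 to 3079 at day 14. The part of either list in the higher share was not tested. Over the 7 libraries outside the low-mitochondrial group, day 14 was 0.876 percentage points above sham, against 2.90 with all libraries. Among the 5 of these that did not stand apart, sham libraries ranged from 5.54% to 7.14%, stroke day 2 replicate 4 was at 10.7% and stroke day 14 replicate 4 at 8.94%. Low-mitochondrial libraries hold no sham library but replicate 1. In summed counts, more ribosomal protein mRNA per cell and less of other mRNAs cannot be told apart.

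Gene by gene, 33 of the 83 members tested were higher in microglia at day 2 than in sham (edgeR quasi-likelihood, adjusted p under 0.05), and none was lower, against 15.7% of all 10145 genes tested being higher. The median log2 fold change was 0.95 over members and -0.05 over all genes. With the 3 libraries left out, 55 of 83 were higher, with a background of 16.6%. None of the 24 members that are low in these libraries was called with all libraries, and 16 were called without them, as their median standard error fell from 0.91 to 0.23. Of the 59 others, 33 were called with all libraries and 39 without the 3. The count was 9 when each value was rounded up before summing and 16 within the libraries outside the low-mitochondrial group. The shares of all genes called in these fits are not given, so a loss in the family cannot be told from one over all genes. Inside the low-mitochondrial group the only sham library stands apart.

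Rps2, a small subunit protein near the mRNA entry, had 527, 733, 472 and 491 CPM in the sham replicates and 2534, 1605, 1424 and 2537 at day 2. Every day 2 library held more than any sham library. The log2 fold change was 1.88 ± 0.28 (SE, edgeR adjusted p = 0.000462) and 1.96 without the 3 libraries. Rps27l, a paralogue of Rps27 and a p53 target, had 135, 158, 111 and 112 CPM in sham and 411, 382, 843 and 665 at day 2. It showed the highest change of the members with a mean of at least 20 CPM, 2.11 ± 0.28 (edgeR adjusted p = 0.000216), and its groups did not overlap. Rpl32, a large subunit protein, rose from 820, 1037, 671 and 756 CPM to 2228, 2163, 3078 and 3358 (1.72 ± 0.27). Rps19 had 730, 1072, 676 and 760 CPM in sham and 1753, 1888, 3107 and 2975 at day 2 (1.58 ± 0.29, edgeR adjusted p = 0.00162), again with no overlap. Without the 3 libraries the changes of Rps27l, Rpl32 and Rps19 were 1.94, 1.64 and 1.39. Rps2 and Rps27l were named for their large called changes in this fit, and Rps19 after its values were seen. Their lack of overlap is therefore no separate support.

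The smallest of the called changes were those of Rps3a1 (0.74, edgeR adjusted p = 0.0329), Rpl36al (0.76, adjusted p = 0.0232) and Rps14 (0.78, adjusted p = 0.0426). Rps14, whose human counterpart is lost in the 5q- syndrome, had 1215, 1723, 1281 and 1248 CPM in sham and 2031, 1662, 2933 and 2788 at day 2, so that stroke replicate 2 fell below sham replicate 2. The calls of Rps14 and Rps3a1 were lost without the 3 libraries (0.60 and 0.56, edgeR adjusted p = 0.0771 and 0.0645). Rps6 shows what these libraries do to a member. It had 9.05 CPM in sham replicate 1 against 508 to 691 in the other sham libraries, and 760 to 1259 CPM in the day 2 libraries other than replicate 3. Its change was 0.93 ± 1.12 with all libraries (edgeR adjusted p = 0.544) and 0.84 ± 0.23 without the 3 (adjusted p = 0.0199).

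**Figure D4:**
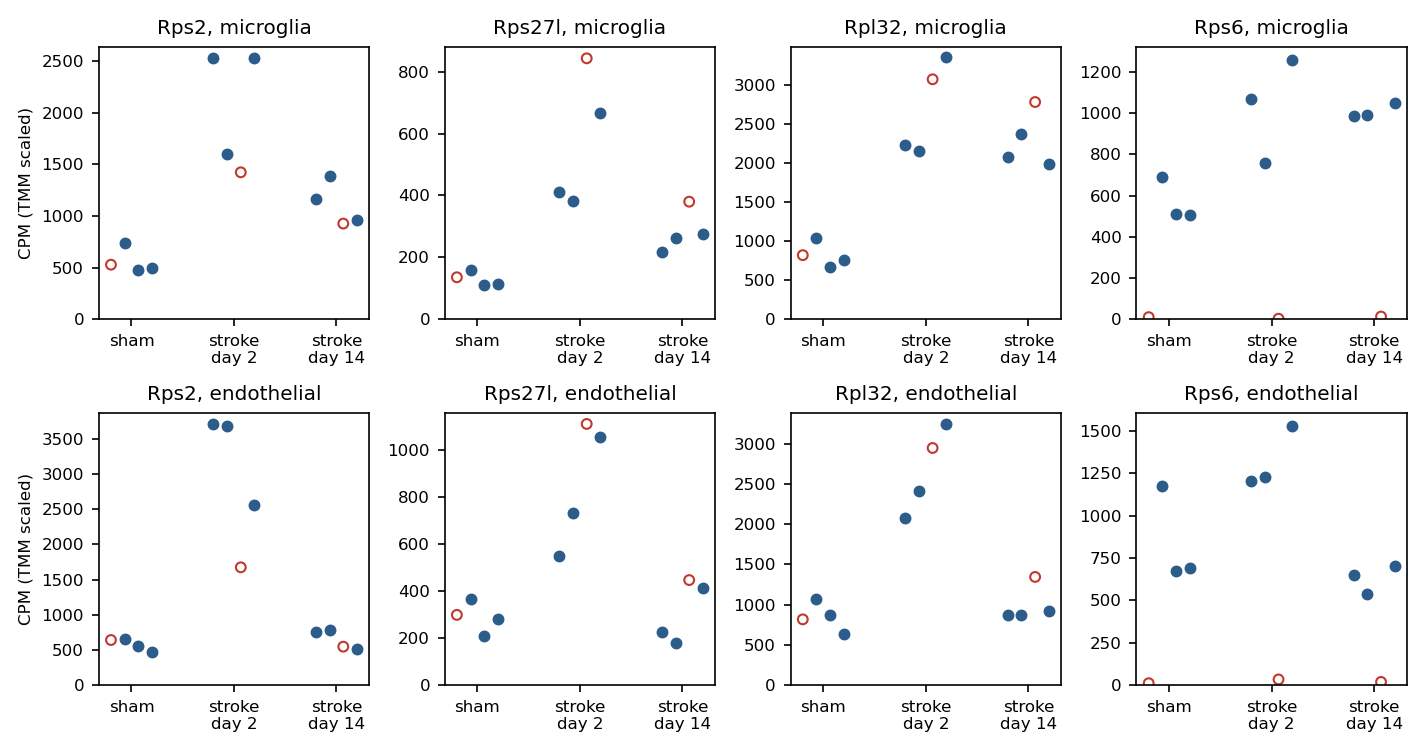
TMM-scaled CPM per library of Rps2, Rps27l, Rpl32 and Rps6 in microglia and endothelial cells of sham, stroke day 2 and stroke day 14, with open red points for the 3 libraries that stood apart. In these libraries Rps2, Rps27l and Rpl32 are not near 0 (endothelial Rps2 is at 1675 CPM at day 2), whereas microglial Rps6 is at 9.05 CPM in the sham library concerned.

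At day 14, 40 of 83 members were higher in microglia than in sham by edgeR, and none lower, against 10.6% of all genes higher. In the fit that left out the 3 libraries 59 of 83 were higher, with a background of 7.46%. The median log2 fold change was 1.04 over members and -0.04 over all genes. Of the 24 low members, 0 were called with all libraries and 15 without the 3. The count depended on the scaling: it was 12 when libraries were scaled by their total counts, where the median of all genes was -0.50, and 7 when each value was rounded up. Within the libraries outside the low-mitochondrial group 4 members were called. The shares of all genes called in these fits are not given here either. Leaving out sham replicate 4 gave 17, sham replicate 3 gave 18, stroke day 14 replicate 2 gave 20, and stroke day 14 replicate 1 or sham replicate 1 gave 25.

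Rps27rt, a retrogene copy of Rps27, showed the largest called change at day 14 among members with a mean of at least 20 CPM. It had 22.6, 11.04, 21.9 and 25.2 CPM in sham and 86.8, 88.0, 22.6 and 58.1 at day 14 (log2 fold change 1.74 ± 0.51, edgeR adjusted p = 0.0363), with replicate 3 among the sham values. Rpl32 had 2085, 2379, 2786 and 1984 CPM, above every sham library (1.49 ± 0.26, edgeR adjusted p = 0.00211). Like Rps27rt, it was named for its large called change in this fit. Rps20, a small subunit protein, changed by 1.40 ± 0.25 (adjusted p = 0.00204 by edgeR). The smallest called changes were those of Rpl29 (0.82), Rps3a1 (0.83) and Rpl4 (0.85), and the call of Rpl29 was lost without the 3 libraries (edgeR adjusted p = 0.0554). Rpl39, a small protein of the peptide exit tunnel, rose from between 641 and 802 CPM to between 1316 and 1819 (1.16 ± 0.21). Rps2 and Rps27l, the leaders at day 2, were at 1.00 and 1.14 (edgeR adjusted p = 0.0276 and 0.0136).

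Between day 14 and day 2 microglia, 1 of 83 members was called by edgeR, Rps27rt, which was higher at day 14 (2.39 ± 0.60, adjusted p = 0.0287), where 3.46% of all genes were higher. When the 3 libraries were dropped, Rps27rt (2.64), Rps29 (0.89) and Rpl39 (0.82) were higher, with a background of 3.32%, and Rps27l was lower (-0.97), with a background of 5.1%. DESeq2 called 4 members with all libraries. When libraries were scaled by their totals 4 members were called, most of them lower at day 14. For these alternatives the shares of all genes called are not given. Leaving out single libraries gave between 0 and 3, and the call of Rps27rt was lost without stroke day 2 replicate 1 or 4, without stroke day 14 replicate 1 or 4, or without sham replicate 3. The ribosomal protein share at day 14 was 1.31 percentage points below that at day 2, and the libraries overlapped.

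**Figure D5:**
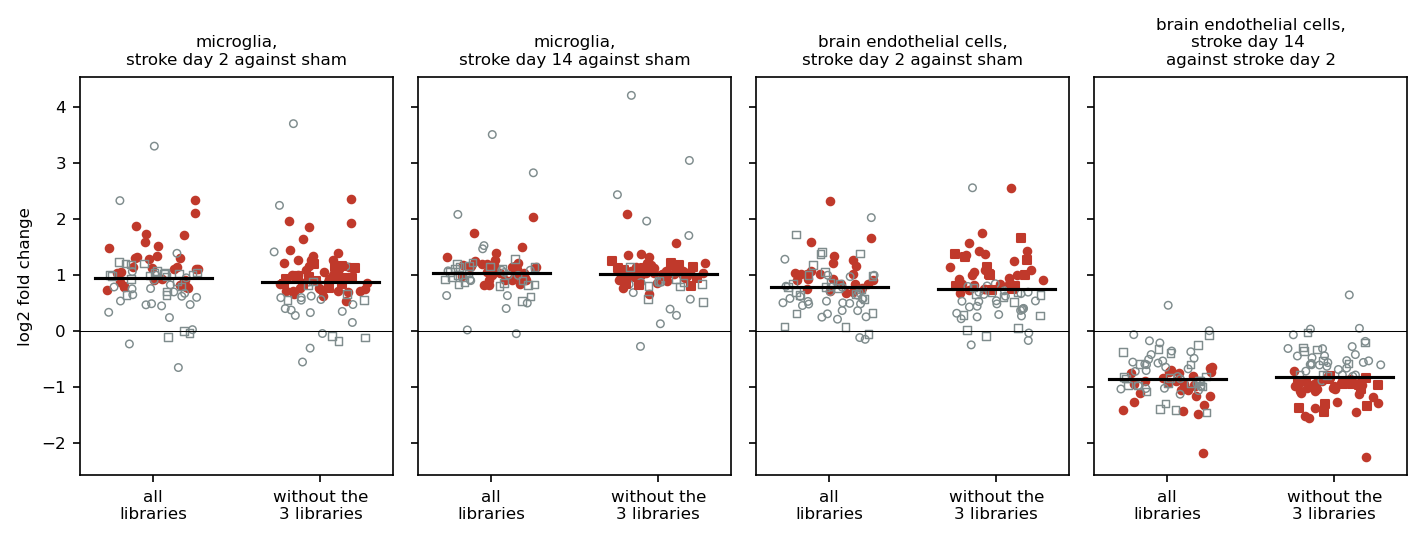
Log2 fold change of each member tested in microglia and endothelial cells, with all libraries and without the 3 that stood apart, red where edgeR called it, grey where not, squares for the 24 members low in these libraries and a line at the median. The medians are 0.95 in microglia and 0.78 in endothelial cells at day 2, and the called squares appear only without the 3 libraries.

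Endothelial cells held a higher share at day 2, and at day 14 the mean was close to that of sham. The share was 4.19%, 7.51%, 6.32% and 6.23% in sham replicates 1 to 4, 10.7%, 10.5%, 6.94% and 11.5% at day 2, and 6.79%, 6.59%, 4.18% and 6.20% at day 14. Day 2 replicate 3, one of the libraries that stood apart, lay below sham replicate 2. The means were 6.06% ± 1.38, 9.90% ± 2.02 and 5.94% ± 1.20 (n = 4 each). Day 14 differed from sham by -0.12 percentage points over all libraries, by 2.50 within the low-mitochondrial libraries, whose only sham library is replicate 1, and by -1.497 outside them. Without the 3 libraries the means were 6.69% ± 0.71, 10.9% ± 0.51 and 6.53% ± 0.30 (n = 3 each), with every day 2 library above every sham and every day 14 library. Over the 63 other members every day 2 library was above every sham library with all 12 included. Day 14 libraries were below day 2 libraries without overlap, by 3.96 percentage points with all libraries. The endothelial marker list was lowest at day 2, with 18180 to 26540 CPM in sham, 12880 to 16770 at day 2 and 18490 to 21260 at day 14. The microglial list stayed at or below 60.9 CPM. The red cell list reached 3545 CPM in sham, 6069 at day 2 and 9732 at day 14. The mural list was at 114 to 560, 67.9 to 231 and 98.9 to 823 CPM in these groups. The part of these lists in the share was not tested.

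By edgeR 25 of the 80 members tested were higher in endothelial cells at day 2, and none lower, against 6.89% of all 5833 genes higher. The median was 0.78 over members and 0.00 over all genes. When the 3 libraries were left out, 38 of 80 were higher, with a background of 7.12%, and 12 of the 24 low members were among them. Outside the low-mitochondrial group 21 were called, and 13 or 15 when sham replicate 3 or 4 was left out. For these fits the shares of all genes called are not given, so a loss in the family cannot be told from one over all genes. Rps2 had the largest change of the members with a mean of at least 20 CPM. It had 640, 661, 559 and 468 CPM in sham and 3709, 3679, 1675 and 2568 at day 2 (log2 fold change 2.33 ± 0.28, edgeR adjusted p = 0.000388). Rpl32 had 816, 1071, 869 and 635 CPM in sham and 2076, 2411, 2946 and 3250 at day 2 (1.66 ± 0.24, adjusted p = 0.00123 by edgeR). Rps27l had 298, 366, 207 and 281 CPM in sham and 546, 731, 1110 and 1054 at day 2 (1.58 ± 0.32, adjusted p = 0.00549 by edgeR). None of these 3 members overlapped between groups, but they were named for having the largest called changes of this fit.

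The smallest called changes at day 2 in endothelial cells were those of Rpl39 (0.68), Rps15 (0.70) and Rpl26 (0.72). The calls of Rpl39 and Rpl26 were lost without the 3 libraries (edgeR adjusted p = 0.0758 and 0.0792). Rps19, which was called in microglia with a change of 1.58, changed by 0.92 in endothelial cells (edgeR adjusted p = 0.0213) and lost its call without the 3 libraries (0.80, adjusted p = 0.064). Whether the cell types differ in these changes was not tested.

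At day 14 none of 80 members was called against sham in endothelial cells by edgeR, with 0% of all genes called, 0 members at an unadjusted p under 0.05 and 0 called by DESeq2. The edgeR count was also 0 without the 3 libraries. The median over members was -0.03. Within the low-mitochondrial libraries, where sham replicate 1 is the only sham library, 20 members were called. Against day 2, 27 of 80 members were lower at day 14 (median -0.85 against 0.02 for all genes), and none was higher, where 6.09% of all genes were lower. After leaving out the 3 libraries 41 were lower, with a background of 4.71%. The count was 8 outside the low-mitochondrial group and 1 within it. It fell to 13 without stroke day 14 replicate 1 or 4, 16 without stroke day 14 replicate 2 and 17 without stroke day 2 replicate 4. For fits split by mitochondrial share or with a single library left out, the shares of all genes called are not given. A change in the family cannot be told there from one over all genes. Rps2 fell to 761, 779, 546 and 507 CPM (log2 fold change -2.17 ± 0.28, edgeR adjusted p = 0.0008), Rps27l to 225, 181, 446 and 412 CPM (-1.48) and Rpl32 to 869, 866, 1343 and 922 CPM (-1.42). In all 3 members each day 14 library was below each day 2 library, but they were named for having the largest called decreases. The smallest called decreases were those of Rps3a1 (-0.65), Rpl13a (-0.66) and Rpl8 (-0.69), and all of these calls were lost without the 3 libraries (edgeR adjusted p = 0.053, 0.112 and 0.0691).

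Monocyte-derived and dendritic cells of the brain had their highest mean share in sham. The share in monocyte-derived cells was 9.25%, 14.7%, 13.3% and 13.7% in sham, 10.1%, 8.42%, 6.49% and 11.6% at day 2, and 8.46%, 8.94%, 5.08% and 9.05% at day 14. The means were 12.7% ± 2.4, 9.16% ± 2.21 and 7.88% ± 1.88 (n = 4 each). Sham replicate 1, one of the libraries that stood apart, overlapped with day 2, and all day 14 libraries were below all sham libraries. Without the 3 libraries the means were 13.9% ± 0.73, 10.1% ± 1.60 and 8.82% ± 0.31 (n = 3 each), with both stroke groups below sham. Within the low-mitochondrial libraries, with sham replicate 1 as the only sham library, day 2 was 0.0185 percentage points above sham and day 14 lay below it by 0.549 (difference -0.549). Sham sums held only 43 to 99 cells of this type. In monocyte-derived sums the microglial list reached 587 CPM in sham, 870 at day 2 and 2495 at day 14. The neutrophil list there reached 3387, 248 and 116 CPM. The monocyte or macrophage list was at 30290 to 37550, 24220 to 33810 and 24810 to 52130 CPM. The part of these lists in the share was not tested. Dendritic cells averaged 17.4% ± 3.0 in sham, 14.3% ± 3.3 at day 2 and 12.9% ± 2.8 at day 14, and both stroke groups overlapped with sham. Without the 3 libraries the means were 18.8%, 15.7% and 14.3%, and both stroke groups were below sham. Over the 63 other members day 2 still overlapped with sham and day 14 did not. Within the low-mitochondrial libraries dendritic shares were above sham replicate 1 by 1.77 percentage points at day 2 and 1.36 at day 14. With all libraries, brain T cells also averaged highest in sham: 21.9% (n = 4), 16.5% at day 2 (n = 3) and 16.7% at day 14 (n = 4). Granulocytes averaged lowest in sham, with 1.74%, 2.61% and 2.26% (n = 4 each).

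Compared within libraries, monocyte-derived cells had a higher share than microglia in 4 of 4 sham libraries (2.06 to 2.52 times), 1 of 4 at day 2 and 1 of 4 at day 14. Over all groups, 40 of 81 members were higher and 2 lower in monocyte-derived cells than in microglia by edgeR with the library as a block, with 24.6% of all 8230 genes higher and 23.6% lower. The median was 0.48 over members and -0.02 over all genes. With 9 libraries, the 3 being left out, 11 of 82 were higher and 2 lower, where 17.2% of all genes were higher and 27.8% lower, so that the share of members called higher was then below the background. Rps19 (0.92, edgeR adjusted p = 0.0022), Rps27l (0.89, adjusted p = 0.000567) and Rps16 (0.84, adjusted p = 0.00249) had the largest differences, and each kept its call without the 3 libraries. Rpl7 had the smallest positive difference among those named (0.44) and lost its call. The members lower in monocyte-derived cells were Rps4l (-1.04) and Rpl7l1 (-0.42, edgeR adjusted p = 0.044). Between day 14 and day 2 within monocyte-derived cells 0 of 82 members were called by edgeR, where 1.79% of all genes were called. At an unadjusted p under 0.05 there were 2, and DESeq2 called 0. With the replicate number as a block 1 was called, and without the 3 libraries 0.

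In aged mice the microglial share was 6.45% and 7.89% in the female and male sham libraries and 8.35%, 8.60% and 9.69% in the first female, the male and the second female stroke library at day 2. All stroke libraries were above both sham libraries (8.88% ± 0.71, n = 3, against 7.17% ± 1.02, n = 2), with a difference of 1.71 percentage points. The microglial list in these sums was at 21400 to 22370 CPM in sham and 10960 to 17770 at day 2. The monocyte or macrophage list was at 1227 to 1232 and 797 to 1064 CPM. The median cell of the first female stroke library held 1.11% mitochondrial counts, against 2.35% to 3.68% in the other aged libraries. Their part in the share was not tested. Endothelial cells had 6.45% and 7.42% in sham, 8.73%, 8.95% and 10.2% at day 2 and 7.19% at day 14. Their endothelial marker list was at 17340 to 18590 CPM in sham, 10700 to 15130 at day 2 and 16640 at day 14, and its part was not tested either. Of 83 members, edgeR called 1 in aged microglia, Rps2, where 1.98% of all 11096 genes were higher. At an unadjusted p under 0.05 there were 5, DESeq2 called 2, and the median was 0.35 over members and -0.04 over all genes. Rps2 had 684 and 613 CPM in the female and male sham libraries and 1947, 1474 and 1819 in the first female, male and second female stroke library (log2 fold change 1.43 ± 0.36, edgeR adjusted p = 0.049). Of the 13 libraries in the fit, 11 ended this call when left out singly. With the 2 young libraries of this fit that stood apart (sham replicate 1 and stroke day 2 replicate 3) left out of the shared estimate of spread, 3 members were called, among them Rps2 and Rps27l, with a background of 2.77%.

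The interaction of age and stroke at day 2 called 0 of 83 members by edgeR and 0 by DESeq2, with 0% of all genes called. At an unadjusted p under 0.05 there were 4, among them Rpl32, Rpl32l and Rps15a. The median interaction was -0.53, a smaller change in aged microglia. The young libraries were all male and the aged ones of both sexes, so age and sex cannot be told apart here. The young side also held sham replicate 1 and stroke day 2 replicate 3, which stood apart. Rpl32 had an interaction of -1.03 ± 0.41 (edgeR adjusted p = 0.739). The response of the family to stroke was thus not shown to differ with age at this number of libraries.

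In blood monocytes, B cells and T cells almost no gene of any kind was called after stroke. Counts of 0 members there say nothing particular about the family. Monocyte, B cell and T cell shares overlapped between groups. By edgeR 0 of 81 members were called in monocytes at either time, where 0% and 0.254% of all genes were called at day 2 and day 14 (0 and 2 members at an unadjusted p under 0.05). In B cells 0 of 82 members were called, with 0% and 0.0114% of all genes called (0 and 2 at an unadjusted p under 0.05), and in T cells 0 of 81, with 0% of all genes at both times (1 and 0). DESeq2 called 0 members in all 6 of these comparisons.

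The share in neutrophils was 1.65% ± 0.26 in sham (n = 4), 1.88% ± 0.27 at day 2 (n = 4) and 2.23% ± 0.16 at day 14 (n = 3). All day 14 libraries were above all sham libraries, by 0.58 percentage points on average, but over the 63 members not low in the 3 brain libraries the groups overlapped. The B cell marker list in these neutrophil sums reached 116 CPM in sham, 54.1 at day 2 and 150 to 299 at day 14. The T cell list was at 3.57 to 38.8 CPM in sham and 18.1 to 40.1 at day 14, and the NK cell list reached 3.59 and 24.4. The monocyte or macrophage list was at 4637 to 8784 and 6652 to 15010 CPM, and the 2 of 5 mural genes in the table at 31.6 to 106 and 135 to 181. The neutrophil list went from 194700 to 298900 CPM in sham to 107100 to 186400 at day 14. B cells held 17.8% as a mean, and the part of RNA from other cells in the neutrophil sums was not tested. At day 2, edgeR called 0 of 75 members, with 0% of all genes called. At an unadjusted p under 0.05 there were 8, and DESeq2 called 0. At day 14, 4 of 75 members were higher, where 2.18% of all 4944 genes were higher, and DESeq2 called 5. They were Rps28, a small protein of the small subunit head (39.6, 46.8, 4.18 and 30.8 CPM in sham, 121, 99.3 and 123 at day 14, log2 fold change 2.00 ± 0.51, edgeR adjusted p = 0.0295), Rpl5, Rpl36 and Rpl21. Rpl5, which binds 5S ribosomal RNA and Mdm2, had 27.3, 51.7, 28.9 and 75.9 CPM in sham and 104, 94.7 and 142 at day 14 (1.501 ± 0.35). Rpl21 had 121, 101, 101 and 105 CPM in sham and 179, 192 and 204 at day 14 (0.84 ± 0.18). Rpl36 changed by 1.36 ± 0.38 (edgeR adjusted p = 0.0465). The count fell to 0 without stroke day 14 replicate 3, to 1 without stroke day 14 replicate 2 or sham replicate 1, and to 2 without stroke day 14 replicate 1. It rose to 7 without sham replicate 4 and to 13 when libraries were scaled by their totals. For these alternatives, too, the shares of all genes called are not given.

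The make-up of the ribosomal protein total was compared as each member's percent of that total in a type, since tag counts at the 3′ end are not divided by length. Rps14, Rps27 and Rps19 had the highest mean share of all counts over young libraries and types (0.368%, 0.320% and 0.311%, over 174 sums). Without the 3 libraries, Rps27 made up 5.72% of the total in blood neutrophils, 4.40% in brain granulocytes, 4.15% in blood B cells and 1.89% in microglia. Rps19 went the other way, with 0.459% in blood neutrophils, 1.74% in microglia, 2.91% in T cells and 3.20% in B cells. Rps9 made up the most of any member in neutrophils among those compared here, 13.9% ± 2.88 (8.76% to 17.1% over 11 libraries), against 1.52% in blood NK cells and 1.87% in blood B cells. It was named after its values were seen, as were Rps27a (6.15% in neutrophils) and Rpl12 (0.0226% in neutrophils and 1.41% in brain NK cells). Rps15a made up 0.683% in neutrophils and 2.596% in T cells, and Rpl13 1.09% in neutrophils and 2.68% in B cells. Rps3, a small subunit protein at the mRNA entry, varied little over most types (1.77% to 2.36%), as did Rpl27 (0.757% to 1.18%). These 5 members (Rps27, Rps15a, Rpl13, Rps3 and Rpl27) were taken by a rule on the ratio of the highest to the lowest type, which did not set them apart: it was infinite for 19 members above 0.5% of the total, for these 5 only because 1 sum of 21 or 23 cells (UC or Epi) listed them at 0. In brain granulocytes both members varied widely over libraries, Rps27 from 1.35% to 7.39% and Rps19 from 0.421% to 2.58%, and overlapped with NK cells (Rps19 1.69% in blood and 1.51% in brain). Brain and blood were deposited as separate tables.

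Among paralogues of canonical subunits, and in types with a spelled-out name, Rps27l made up 0.500% of the total in endothelial cells, 0.425% in monocyte-derived cells, 0.304% in microglia and 0.051% in blood T cells. Rpl3l was found mainly in neutrophils (0.201%), with 497 counts in all blood libraries against 83.1 in young and 19.6 in aged brain. Rps4l, annotated as a pseudogene, made up 0.160% in endothelial cells, 0.051% in microglia and 0.002% in T cells. Rpl22l1, the paralogue of Rpl22, ranged from 0.063% in neutrophils to 0.409% in blood NK cells, and Rpl7l1 from 0.0147% in brain T cells to 0.196% in neutrophils. Some sums of the codes UC, pre, MC and Epi lay outside these values, such as Rpl22l1 at 0.865% and Rps27l at 0.966% in the 1 MC sum left without the 3 libraries. Rpl10l, known from testis, had 64.5 counts in young and 11 in aged brain, and Rpl39l 142 in young brain. Reads of near-identical copies such as Rps27rt, Rpl37rt and Rps3a2 may be split among copies by the counting, so that their values are uncertain.

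The values of paralogues and their partners after stroke are set side by side, without a test of their difference. In microglia at day 2 Rps27l rose by 2.11 while Rps27 stood at -0.10 ± 1.06 with all libraries and -0.18 without the 3 (edgeR adjusted p = 0.959 and 0.629). Rpl22l1 rose by 0.93 (adjusted p = 0.017 by edgeR; 0.0581 without the 3 libraries), beside 0.65 for Rpl22 (adjusted p = 0.0511). In endothelial cells at day 2 Rpl22l1 rose by 1.03 (adjusted p = 0.0126 by edgeR) beside 0.50 for Rpl22 (adjusted p = 0.156), and Rpl7l1 rose by 0.90 (adjusted p = 0.0285), whereas in microglia Rpl7l1 stood at 0.24 (adjusted p = 0.395). At day 14 in microglia the larger value was that of Rpl22, 1.11 (edgeR adjusted p = 0.00691), against 0.40 for Rpl22l1 (adjusted p = 0.292). Rpl39 stood at 0.47 (adjusted p = 0.102) and Rpl3 at 0.76 (adjusted p = 0.164) in microglia at day 2, and Rpl7 rose by 1.05 (adjusted p = 0.0205). Rpl36al rose by 0.76 beside 1.04 for Rpl36a, one of the 24 low members (adjusted p = 0.355, and 0.00924 without the 3 libraries). Rpl10, also one of the 24 low members, none of which was called with all libraries, was at 0.71 (edgeR adjusted p = 0.561). Rps4x was at 0.03 and Rps4l at -0.23 (edgeR adjusted p = 0.861).

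Genes of related function were counted from lists chosen with earlier results of these data known. The 7 subunit genes outside the symbol pattern, such as Rplp0 of the ribosomal stalk and Rpsa of the small subunit, had 6 higher in microglia at day 2 (median 0.79), 4 at day 14 (1.02) and 5 in endothelial cells at day 2 (0.85), where 15.7%, 10.6% and 6.89% of all genes were higher. In endothelial cells 5 were lower at day 14 than at day 2 (-0.83), against 6.09% of all genes. In microglia at day 2 Rplp0 rose by 1.71 ± 0.38 and Rpsa by 1.76 ± 0.43 by edgeR, and Fau, one of the genes low in the 3 libraries, stood at 0.37 ± 0.95. With the 3 libraries dropped the counts of these 7 genes were 5, 5, 4 and 3, where 16.6%, 7.46%, 7.12% and 4.71% of all genes were called in that direction, and Rplp0 and Rpsa in microglia were at 1.37 and 1.77. Of 16 translation factors and other mRNAs with terminal oligopyrimidine tracts, 10 were higher in microglia at day 2 (median 0.83) and 10 at day 14 (1.00), and 6 of 15 in endothelial cells at day 2 (0.67), beside the same shares of all genes. With the 3 dropped these were 10, 9 and 4. Eef1g, an elongation factor subunit, rose by 1.89 ± 0.24 in microglia at day 2 (1.99 with the 3 dropped).

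Of the genes of ribosome assembly and ribosomal RNA synthesis in microglia, 3 of 21 were higher at day 2 (median 0.41) and 1 at day 14 (-0.08), no more than the 15.7% and 10.6% of all genes. In endothelial cells 7 of 15 were higher at day 2 (0.87), against 6.89% of all genes. On the remaining 9 libraries the counts were 5 and 0 of 21 and 7 of 16, so that the microglial count at day 2 was then above the 16.6% of all genes. Nhp2, of the small nucleolar particles that modify ribosomal RNA, rose by 2.06 ± 0.24 in microglia and 1.94 ± 0.34 in endothelial cells at day 2. Fbl, the methyltransferase of these particles, rose by 2.81 ± 0.75 in endothelial cells and stood at 0.70 ± 0.60 in microglia (edgeR adjusted p = 0.378). Of the mitochondrial ribosomal proteins, encoded by a separate gene family, 42 of 79 were higher in microglia at day 2 (median 0.83), against 15.7% of all genes, and 7 at day 14 (0.29), a share below the 10.6% of all genes. In endothelial cells 13 of 71 were higher at day 2 (0.62), against 6.89%. On the 9 libraries these counts were 41, 1 and 11. In microglia 3 of 10 Myc and mTORC1 genes were higher at day 2, against 15.7% of all genes, namely Rheb (1.15), Eif4ebp1 (1.34) and Eif4e (1.15), and Rptor was lower (-1.35). These 4 calls held on the 9 libraries. Myc itself was lower at day 14 (-1.32), a call lost on the 9 libraries (-1.57, edgeR adjusted p = 0.0575). In endothelial cells Eif4ebp1 was higher at day 2 (1.44), also on the 9 libraries.

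The genes outside the family whose level followed the ribosomal protein share most closely were found by Spearman correlation over the 174 library and type sums, among 6612 genes that averaged 20 CPM or more. They were Rpsa (0.954), Rplp2 (0.923), Naca (0.875), Rack1 (0.869) and Npm1 (0.848), and over the 145 sums without the 3 libraries their correlations were 0.955, 0.965, 0.867, 0.931 and 0.885. Sums of 1 library share its preparation, depth and scaling, so these values describe likeness only.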

How the data were processed

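Single-cell transcripts of 29 mouse libraries (12 young brain, 6 aged brain, 11 blood) were measured by Drop-seq, per the labels. The deposited tables hold expected counts per gene and cell, made by the authors. They are estimated counts that need not be whole: 0.320% to 4.81% of non-zero values were whole, and library totals were 2.59% to 14.1% below those with each value rounded up. The deposited metadata give a count of detected genes per cell, the percent of mitochondrial counts and the cell type, all by the authors. The submitters' processing notes name Seurat and mm10, with no role. The aligner and the step that made counts fractional are not given in the sources used here.

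All deposited cells were kept, and doublets were not called. For each library and cell type with at least 20 cells, expected counts were added up and rounded to whole numbers. These sums were tested with the edgeR 4.0.16 quasi-likelihood test (R 4.3.3, limma 3.58.1) with TMM scaling and filterByExpr. Tests were two-sided, adjusted by Benjamini-Hochberg over the whole table, and "called" means an adjusted p under 0.05. Young brain and blood fits each held 3 groups. Aged microglia were fitted with the young day 2 brain libraries, 4 groups in all. CPM values of single genes from the fits are TMM-scaled with a prior count of 2. Those that set apart the 3 libraries and the low members are relative to library totals only. The CPM of marker lists carry no prior count. The ribosomal protein share, a sum over members, was given no test. Nothing in the labels says that pools of 1 group share no animal, so p-values measure the spread between these pools. Sampling error of the counts is not shown separately.

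Members with values in the text were the 3 of highest mean share, the 3 highest and 3 lowest called log2 fold changes per comparison (mean of at least 20 CPM), the paralogues with their partners, and 5 taken by the highest ratio of share of the total between types, a ratio that was tied (infinite, through sums at 0) over 19 members. Others (such as Rps6, Rps29 and Rps13, or Rps19 in microglia and endothelial cells) were named after their values were seen. Some genes that the rule names are not reported here. The members and all lists were chosen with earlier results of these data known. The alternatives tried were other scalings, DESeq2 1.42.0, a fit with no filter, rounding up, deeper cells (at least 500 counts), single libraries left out, the replicate number as a block, and the low-mitochondrial libraries as a term or apart. Leaving out the 3 libraries, and the members low in them, was chosen after seeing the data. For the other alternatives, the share of all genes called in the same fit is not given beside the count of members. Positions, promoters and annotations come from RefSeq and GENCODE (GRCm38.p6). The fitting was tested on simulated data.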

Additional observations from a re-analysis of the deposited data

Results flagged for a closer look

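Among 31 groups of 4 libraries, 3 held a library whose ribosomal protein share lay far from the others of its group. Chance gives this in about 1 in 20 groups (5%). Brain dendritic cells of stroke day 14 replicate 3 had 8.76%, the lowest of 4, with the others between 14.2% and 14.4%. Monocyte-derived cells of the same library had 5.08%, with the others between 8.46% and 9.05%. This is one of the 3 libraries in which 24 members were low. Blood neutrophils of sham replicate 4 had 2.04%, the highest of 4, with the others between 1.48% and 1.57%.

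The single aged stroke library of day 14 entered no comparison. Its microglia had a share of 10.2%, above the 6.45% and 7.89% of the aged sham libraries.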

How the results depend on the processing

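Over all settings without a left-out library, 292 comparison values stayed close to the main value and 5 reversed. Close meant a similar count of calls, or a share difference that shifted by less than the pooled SD. A count of 0 under both settings was also taken as close, so comparisons without calls add to the 292. Such a share difference could still change sign, and a similar count could still gain or lose calls. The count of calls fell further in 22 and rose further in 13, and the share difference moved further in 10. For single members 318 kept direction and call, 110 lost the call and 2 reversed. By DESeq2 the members called were 4 in microglia of day 14 against day 2, 2 in aged microglia and 18 in monocyte-derived cells against microglia. With cells of at least 500 counts they were 3 (reversed), 2 and 14, and 2 in neutrophils at day 14. With values rounded up they were 9 in microglia at day 2, 7 at day 14, 0 in aged microglia and 23 in monocyte-derived cells against microglia. The share difference was then 2.72 percentage points in microglia at day 2 and 0.836 in neutrophils at day 14. With library totals as size they were 12 in microglia at day 14, 4 in microglia of day 14 against day 2 (reversed), 13 in neutrophils at day 14 and 15 in monocyte-derived cells, and Rps9 in B cells against neutrophils reversed to 0.39. With totals free of ribosomal protein and mitochondrial genes they were 14, 4 (reversed), 13 and 15, and Rps9 was at 0.72. With total counts the all-gene median was -0.23 in place of -0.05 in microglia at day 2. With no filter 23 members were called in microglia at day 14, 16 in endothelial cells of day 14 against day 2 and 0 in aged microglia. Since all-gene shares are not given beside these counts, a change in the family cannot be told from one over all genes.

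Within the low-mitochondrial libraries, whose only sham library stands apart, calls were 19 in microglia at day 2, 25 at day 14 and 0 for day 14 against day 2. In endothelial cells they were 20 for day 14 against sham and 1 for day 14 against day 2. Share differences there were 5.99 and 6.20 in microglia at day 2 and 14, 6.41 and 2.50 in endothelial cells, 0.0185 (reversed) and -0.549 in monocyte-derived cells, and 1.77 and 1.36 (reversed) in dendritic cells. Outside these libraries calls were 16 in microglia at day 2, 4 at day 14 and 8 in endothelial cells of day 14 against day 2, and share differences at day 14 were 0.876 in microglia and -1.497 in endothelial cells. With the split as a term 2 members were called in microglia of day 14 against day 2. Without the 3 libraries calls were 55 in microglia at day 2, 4 for day 14 against day 2, 38 and 41 in endothelial cells, 3 in aged microglia (whose fit held 2 of them) and 13 in monocyte-derived cells. The cause of these changes was not tested.

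Deviations of same-numbered libraries from their group means correlated from -0.38 to 0.76, a range that cannot decide whether the replicate numbers pair them. In each cell type fitted the mean correlation was above that of other pairs. It was 0.169 against -0.057 in monocyte-derived cells and 0.090 against -0.031 in microglia. Pairs on the same side of the mitochondrial split averaged 0.159 and 0.131 in these types, against -0.160 and -0.132 across it. All low-mitochondrial young brain libraries are replicates 1 or 2, so number and split cannot be told apart. With the replicate number as a block 28, 32, 24 and 26 members were called in microglia at day 2 and 14, in endothelial cells at day 2 and for day 14 against day 2, and 1 in monocyte-derived cells of day 14 against day 2. Leaving out single libraries gave 23 to 36 calls in microglia at day 2, 17 to 43 at day 14, 0 to 3 for day 14 against day 2, 13 to 25 in endothelial cells at day 2, 13 to 33 for day 14 against day 2, 0 to 7 in neutrophils at day 14, 0 to 1 in aged microglia and 23 to 49 in monocyte-derived cells. Sham sums of few cells limit monocyte-derived and dendritic values.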
